A study of Mus musculus with 5 samples.

Results

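Transcripts of 10 genes of the autophagy machinery were followed in fat cells treated with plant polyphenols. The genes encode the cargo receptor p62 (Sqstm1), the ATG8-like proteins LC3A, LC3B, GABARAPL1 and GABARAPL2 (Map1lc3a, Map1lc3b, Gabarapl1, Gabarapl2), the kinase ULK1, Beclin 1 (Becn1), WIPI1, ATG5 and the transcription factor TFEB. All probe sets whose platform annotation names only one of these genes were taken, which gave 29 of the 45037 probe sets on the array, and each of the 10 genes had at least 1. Of the 29, 27 had a mean log2 intensity over the 5 arrays at or above a floor set at the median of all probe sets, an intensity of 8.39. That floor kept 22519 probe sets in all.

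The cells were C3H10T1/2, a mouse mesenchymal line, taken through a standard protocol to fully differentiated adipocytes. They received butein, sulfuretin or the solvent DMSO for 6 h, or resveratrol with a second solvent culture, DMSO1, which the labels name as the control of resveratrol. Each of the 5 groups had 1 Affymetrix array of total RNA, so no difference within a comparison has a replicate error of its own, and the number of arrays limits the precision throughout. Doses are not in the labels, and the line is the only genetic background.

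Autophagy wraps cytoplasm and damaged components in a double membrane that fuses with lysosomes. ULK1 and the Beclin 1 complex start the membrane, WIPI1 binds its lipid, ATG5 takes part in attaching ATG8-like proteins to it, and p62 ties ubiquitinated cargo to those proteins. TFEB switches on lysosome and autophagy genes. p62 is itself degraded by autophagy, and it also binds KEAP1, the inhibitor of the antioxidant regulator NRF2, whose targets include Sqstm1 in mouse cells. In adipose tissue autophagy is known for its part in fat cell differentiation and in the removal of mitochondria.

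The deposited values fall into 2 sets. Sorted intensities of butein, sulfuretin and DMSO nearly coincide, with a median gap of at most 0.002 on the log2 scale, as do those of resveratrol and DMSO1 (median gap 0.0011), while arrays of different sets differ by a median of 0.50 to 0.52. Each compound was therefore set against the DMSO array of its own set. Of 8 adipocyte markers, 6 had a probe set with a single gene symbol and 5 of these were at or above the floor, Lep being below it, and their summed intensity was 20157 with butein, 23022 with sulfuretin and 23055 in DMSO, and 21571 with resveratrol against 22946 in DMSO1. Summed intensities over the 5 arrays ran from 34.5 to 42.2 for 5 macrophage and blood markers, 65.7 to 208 for 4 skeletal muscle markers, 53.4 to 73.2 for 3 osteoblast and chondrocyte markers and 979 to 1244 for 4 fibroblast markers. Below the floor were Ptprc, Adgre1, Cd68 and Itgam, the muscle regulators Myod1 and Myog, the cartilage gene Acan and the preadipocyte gene Dlk1. At or above it were Csf1r, Acta1, Ckm, Sp7, Col2a1, Pdgfra, Thy1 and Col1a1 of the same lists. The brightest of these were Col1a1, from 501 to 708 over the 5 arrays, and Pdgfra, from 353 to 387. The adipocyte sum was lowest with butein, and all 5 adipocyte markers at or above the floor were lower than in DMSO. Butein also had the lowest sum of muscle (65.7, against 91.6 in DMSO), osteoblast and chondrocyte (53.4 against 72.2) and fibroblast markers (979 against 1104). The muscle sum differed mainly through Acta1 (45.3 against 71.1). The osteoblast and chondrocyte sum differed mainly through Col2a1 (25.8 against 44.4), with Sp7 equal. Of the fibroblast markers Col1a1 (501 against 608) and Pdgfra (356 against 383) were lower with butein and Thy1 was higher (116 against 108). The macrophage and blood sum was lowest in DMSO. The part of these sums in the results below was not tested. In RNA from whole cultures, fewer cells of a type and less RNA per cell cannot be told apart.

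Sqstm1 gave the largest differences of the 10 genes with butein and with sulfuretin, whereas with resveratrol Ulk1 and Gabarapl1 differed more. Its probe set 1450957_a_at read 3128 with butein and 1948 with sulfuretin, against 837 in DMSO, and 1828 with resveratrol against 1567 in DMSO1. Butein was thus 3.74-fold higher than DMSO, sulfuretin 2.33-fold and resveratrol 1.17-fold higher than DMSO1. The second probe set, 1444021_at, read 64.1 with butein and 45.3 with sulfuretin, against 24.4 in DMSO, and 29.8 with resveratrol against 26.5 in DMSO1. These are 2.63-fold, 1.86-fold and 1.12-fold higher. Both probe sets put butein above sulfuretin and sulfuretin above DMSO, and on both the difference with resveratrol was the smallest of the 3.

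The solvent arrays bear on these sizes. On 1450957_a_at DMSO1 read 1.87-fold higher than DMSO (log2 difference 0.90), and with one quantile normalization over all 5 arrays it was still 1.60-fold higher. Between the sets the median log2 difference over all probe sets at or above the floor was 0.59 as deposited and -0.04 after joint normalization. Of the 29 autophagy probe sets, 26 were higher in DMSO1 than in DMSO as deposited. The median over the 29 was 0.59 as deposited and 0.14 after joint normalization. With DMSO1 in place of DMSO as its control, butein was 1.996-fold higher as deposited (log2 difference 0.997), just short of 2-fold, and 2.14-fold after joint normalization, and sulfuretin 1.24-fold and 1.39-fold. Resveratrol against DMSO in place of DMSO1 was 2.18-fold higher, and 1.95-fold after joint normalization. The other probe set, 1444021_at, was 1.09-fold higher in DMSO1 than in DMSO as deposited, and there butein remained 2.42-fold and sulfuretin 1.71-fold above DMSO1. After joint normalization DMSO1 was lower than DMSO on this probe set (log2 difference -0.75), and resveratrol against DMSO turned to -0.60. The butein reading stayed above both solvent readings on both probe sets in each of these settings, whereas for resveratrol the direction on 1444021_at depended on the setting.

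A fit with limma that treated DMSO and DMSO1 as 2 solvent replicates, with 1 residual degree of freedom and the assumption that lone treated arrays vary like the solvents, gave a log2 difference of 1.45 for butein on 1450957_a_at (SE 0.70, 95% interval 0.08 to 2.82). Its unadjusted p was 0.037, and the Benjamini-Hochberg adjusted limma p over all 45037 probe sets was 0.9999. These p-values rest only on the spread between the 2 solvent arrays, pooled over all probe sets, so every probe set had the same SE. The solvent arrays lie in different sets, and their median log2 difference of 0.59 enters that spread. It is therefore not a measure of replicate variation. That fit called 17 probe sets with butein (0.0377% of all) and 0 with sulfuretin or resveratrol (0%), and no autophagy probe set was among the calls. At an unadjusted limma p of 0.05 the counts over all probe sets were 553, 315 and 299, and among the 29 autophagy probe sets 2, 1 and 1. For butein these were Sqstm1 1450957_a_at and Becn1 1435219_x_at, and for sulfuretin and resveratrol Becn1 1435219_x_at alone, whose solvent values differ most between the sets.

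**Figure D1:**
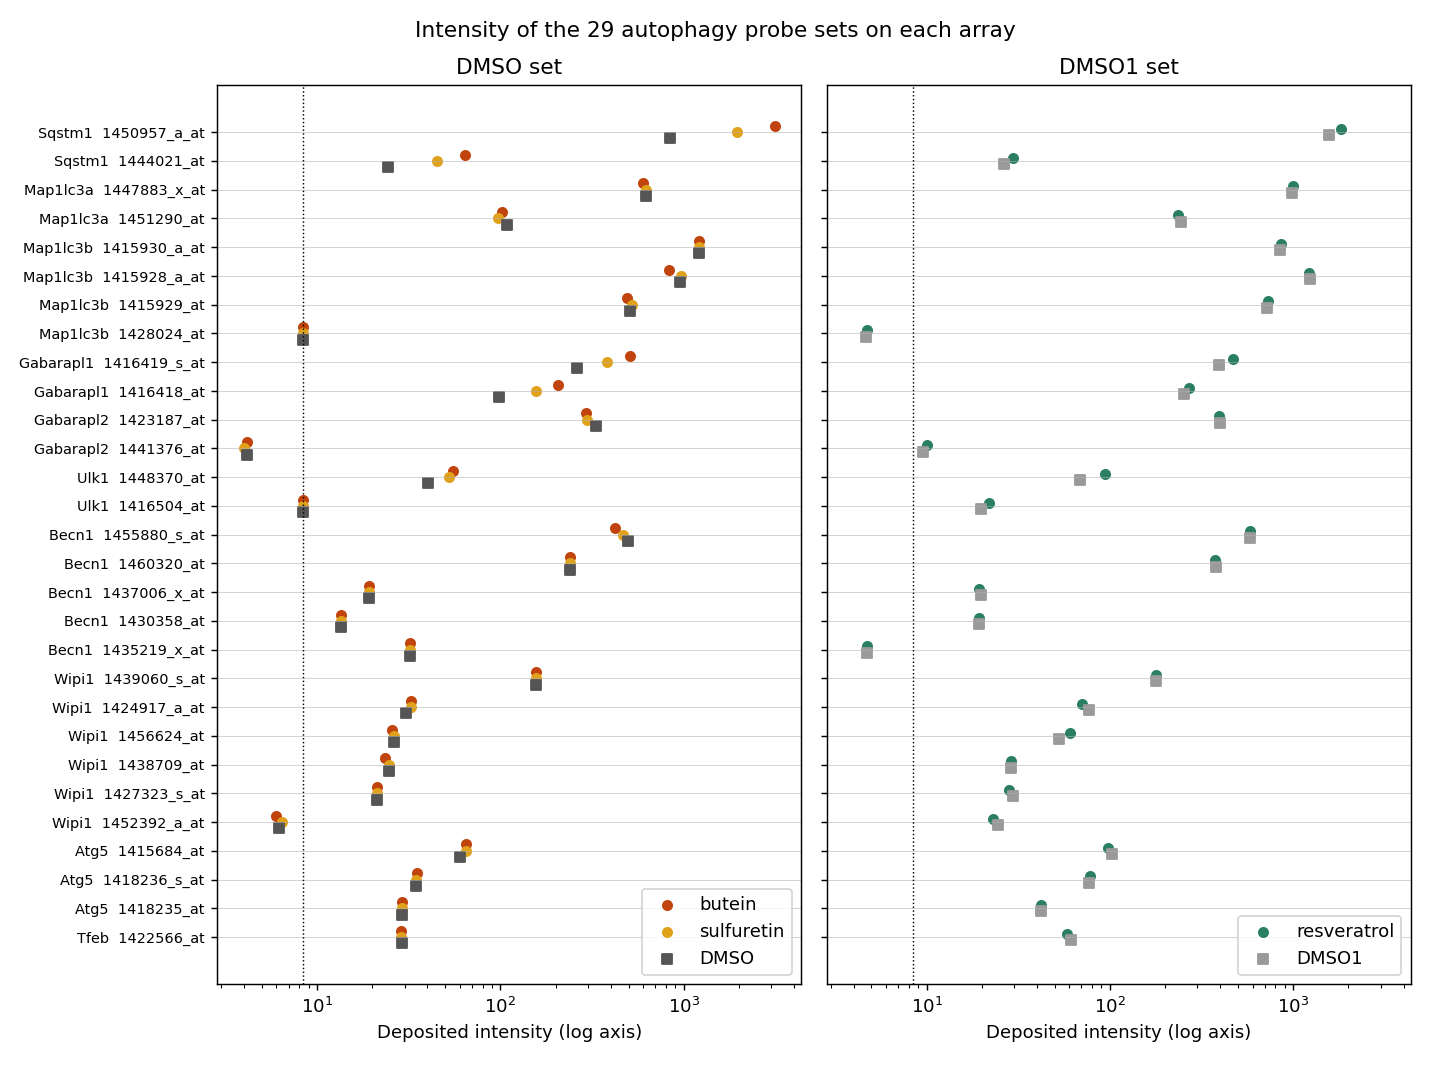
Deposited intensity (log axis) of each of the 29 autophagy probe sets, one row per probe set, with butein, sulfuretin and DMSO on the left and resveratrol and DMSO1 on the right. Each point is 1 array and the dotted line is the floor of 8.39. Sqstm1 1450957_a_at lies at 3128, 1948 and 837 on the left and at 1828 and 1567 on the right, while most other rows have points on top of each other within a panel.

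Gabarapl1, an ATG8-like gene of the GABARAP branch, came next. Its probe set 1416419_s_at read 512 with butein and 380 with sulfuretin, against 262 in DMSO, and 471 with resveratrol against 393 in DMSO1. The probe set 1416418_at read 205 with butein and 156 with sulfuretin, against 98.0 in DMSO, and 270 with resveratrol against 253 in DMSO1. Butein was 1.96-fold and 2.09-fold higher than DMSO on these probe sets, sulfuretin 1.45-fold and 1.59-fold, and resveratrol 1.20-fold and 1.07-fold higher than DMSO1. The order of the arrays was the one seen for Sqstm1, with sulfuretin between butein and DMSO.

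Here the solvent arrays differed by more than butein differed from DMSO on one of the probe sets. DMSO1 was 2.58-fold higher than DMSO on 1416418_at and 1.503-fold on 1416419_s_at, so that with DMSO1 as control butein was 1.23-fold lower on 1416418_at and 1.30-fold higher on 1416419_s_at. After joint quantile normalization the same differences were 1.09-fold and 1.71-fold higher. Sulfuretin against DMSO1 gave log2 differences of -0.05 on 1416419_s_at and -0.70 on 1416418_at as deposited, and 0.37 and -0.25 after joint normalization, so its direction on Gabarapl1 depended on the control array. The 2 probe sets name the same accession and do not count as independent measurements. With limma on the jointly normalized values the log2 difference of butein from the mean of both solvents was 0.87 on 1416419_s_at (SE 0.22, unadjusted p 0.040, adjusted limma p 0.985), and on 1416418_at it was 0.57 (SE 0.53).

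The start regions of these genes are shown because Sqstm1 and Gabarapl1 were higher with the same compounds. RefSeq promoter windows of assembly GRCm38.p6, from 250 bases before to 50 bases after the annotated start, were at hand for 8 of the 10 genes, in 10 windows. They were searched on both strands for TGACNNNGC, the core of the antioxidant response element bound by NRF2, and for CACGTG, the E-box inside the element that TFEB binds. The windows of Sqstm1 (chr11:50210771-50211070, minus strand) and Gabarapl1 (chr6:129532942-129533241, plus strand) hold neither string. Map1lc3b (chr8:121590188-121590487, plus strand) holds TGACNNNGC once, and Atg5 (chr10:44268089-44268388, plus strand) holds CACGTG once. They are printed 5′ to 3′ in lower case with the matching bases in capitals.
Sqstm1: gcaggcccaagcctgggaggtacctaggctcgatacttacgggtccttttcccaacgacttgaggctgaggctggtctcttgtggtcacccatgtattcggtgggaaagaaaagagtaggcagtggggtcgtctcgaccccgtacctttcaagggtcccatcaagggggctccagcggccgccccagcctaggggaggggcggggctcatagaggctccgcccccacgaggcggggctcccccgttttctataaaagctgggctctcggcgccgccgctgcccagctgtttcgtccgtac
Gabarapl1: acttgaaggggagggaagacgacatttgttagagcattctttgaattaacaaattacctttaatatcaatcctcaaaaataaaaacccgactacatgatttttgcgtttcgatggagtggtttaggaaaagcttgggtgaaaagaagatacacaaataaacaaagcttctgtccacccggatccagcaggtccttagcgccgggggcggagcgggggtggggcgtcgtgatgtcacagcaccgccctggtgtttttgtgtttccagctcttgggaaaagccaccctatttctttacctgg
Map1lc3b: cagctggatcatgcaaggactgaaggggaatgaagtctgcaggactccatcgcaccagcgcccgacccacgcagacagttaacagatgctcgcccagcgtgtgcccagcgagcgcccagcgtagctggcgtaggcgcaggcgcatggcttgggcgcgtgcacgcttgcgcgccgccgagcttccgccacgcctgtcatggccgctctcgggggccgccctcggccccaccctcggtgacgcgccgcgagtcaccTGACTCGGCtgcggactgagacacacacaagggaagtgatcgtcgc
Atg5: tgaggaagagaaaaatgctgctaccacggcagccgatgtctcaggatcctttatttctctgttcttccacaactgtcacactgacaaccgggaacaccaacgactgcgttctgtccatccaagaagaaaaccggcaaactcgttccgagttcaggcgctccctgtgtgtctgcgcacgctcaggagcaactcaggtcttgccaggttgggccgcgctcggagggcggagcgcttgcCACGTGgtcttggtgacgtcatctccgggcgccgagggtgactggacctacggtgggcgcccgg
Of 32851 RefSeq promoter windows of the same length, 12.4% hold TGACNNNGC and 7.15% hold CACGTG, and 413 hold both. The strings do not overlap in the windows printed here. The absence of these letters concerns these windows alone. In Map1lc3b the antioxidant core begins at base 255 of the window, after the annotated start. Whether NRF2 or TFEB binds any of these windows was not tested.

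The other ATG8-like genes stayed near their solvent values. Map1lc3b, which encodes the LC3B protein used as the common marker of autophagosomes, read 1209 on 1415930_a_at with butein, with sulfuretin and in DMSO, and 853 with resveratrol against 852 in DMSO1. On 1415928_a_at it read 833 with butein and 971 with sulfuretin, against 960 in DMSO, and 1214 with resveratrol against 1229 in DMSO1. On 1415929_at the values were 488 with butein and 520 with sulfuretin, against 510 in DMSO, and 728 with resveratrol against 720 in DMSO1. The largest of these differences was that of butein on 1415928_a_at, a log2 value of -0.20. The last Map1lc3b probe set, 1428024_at, was below the floor, at 8.37 on the 3 arrays of the first set, 4.72 with resveratrol and 4.70 in DMSO1.

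Map1lc3a, the gene of the LC3A form, read 602 on 1447883_x_at with butein and 625 with sulfuretin, against 625 in DMSO, and 994 with resveratrol against 981 in DMSO1. On 1451290_at it read 102 with butein and 97.5 with sulfuretin, against 109 in DMSO, and 235 with resveratrol against 243 in DMSO1. Its log2 differences ran from -0.16 to 0.02 over the 3 compounds. Gabarapl2, known also as GATE-16, read 295 with butein and 298 with sulfuretin on 1423187_at, against 331 in DMSO, and 394 with resveratrol against 397 in DMSO1. Its other probe set, 1441376_at, was below the floor, between 3.99 and 9.99 on the 5 arrays. Within the ATG8-like genes, 2 of 10 probe sets were thus higher with butein, both of Gabarapl1, while 5 were lower and 3 were equal to DMSO. The 5 lower ones differed by log2 values of only -0.20 to -0.06. Of the equal ones, Gabarapl2 1441376_at and the last Map1lc3b probe set were below the floor. Of all genes at or above the floor, by their brightest probe sets, 34.6% were higher and 38.7% lower with butein. Of all probe sets at or above it, 30.3% were equal to DMSO.

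Ulk1, the kinase that receives the nutrient signal from mTORC1 and AMPK, was the gene with the largest difference under resveratrol. On 1448370_at it read 55.2 with butein and 52.6 with sulfuretin, against 40.1 in DMSO, and 93.9 with resveratrol against 68.9 in DMSO1. The log2 differences were 0.46, 0.39 and 0.45, so the compounds gave similar values and none passed 2-fold. Its probe set 1416504_at read 8.37 on all 3 arrays of the first set, just under the floor, and 21.8 with resveratrol against 19.8 in DMSO1. With the solvent arrays exchanged, 1448370_at turned to -0.32 for butein and -0.39 for sulfuretin and to 1.23 for resveratrol. After joint normalization the exchanged differences were 0.31, 0.26 and 0.60, all above 0.

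Becn1, whose protein joins the lipid kinase complex that nucleates the membrane, had 5 probe sets. On 1455880_s_at it read 424 with butein and 465 with sulfuretin, against 498 in DMSO, and 583 with resveratrol and in DMSO1. That is a log2 difference of -0.23 for butein and -0.10 for sulfuretin. On 1460320_at all arrays of the first set read 241, and resveratrol read 376 against 377 in DMSO1. On 1437006_x_at the 5 arrays lay between 19.1 and 19.8, and on 1430358_at they read 13.5 in the first set and 19.4 in the second. The remaining probe set, 1435219_x_at, read 32.3 on every array of the first set and 4.72 on both of the second, a log2 difference of -2.77 between DMSO1 and DMSO with no difference inside either set.

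Wipi1, which encodes a binder of the lipid made by that complex, had 6 probe sets. 1439060_s_at read 156 on the 3 arrays of the first set and 179 on both of the second. 1424917_a_at read 32.6 with butein and with sulfuretin, against 30.7 in DMSO, and 70.4 with resveratrol against 76.5 in DMSO1. 1456624_at read 25.7 with butein and 26.4 with sulfuretin, against 26.4 in DMSO, and 61.0 with resveratrol against 52.7 in DMSO1, a log2 difference of 0.21 for resveratrol. The other probe sets, 1438709_at, 1427323_s_at and 1452392_a_at, lay between 5.95 and 29.8 and differed from their solvent array by a log2 value of -0.09 to 0.06.

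Atg5, the gene of a subunit of the enzyme complex that couples ATG8-like proteins to lipid, had 3 probe sets that name the same accession. On 1415684_at it read 64.6 with butein and with sulfuretin, against 60.1 in DMSO, and 97.4 with resveratrol against 103 in DMSO1. On 1418236_s_at it read 35.3 with butein and 34.6 with sulfuretin, against 34.6 in DMSO, and 77.6 with resveratrol against 76.8 in DMSO1, and on 1418235_at 28.99 throughout the first set and 42.1 in the second. No Atg5 difference exceeded a log2 value of 0.11. Tfeb had 1 probe set, 1422566_at, which read 28.6 with butein and with sulfuretin, against 28.99 in DMSO, and 58.4 with resveratrol against 61.4 in DMSO1. Its log2 differences were -0.02, -0.02 and -0.07.

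Over the 27 probe sets at or above the floor, 3 were at least 2-fold higher with butein, 2 of Sqstm1 and 1 of Gabarapl1, and 0 were at least 2-fold lower. Over all 22519 probe sets 1.99% were 2-fold higher with butein and 0.511% lower. With sulfuretin 1 of the 27, Sqstm1 1450957_a_at, was 2-fold higher and 0 were lower, beside 0.213% and 0.0622% of all. With resveratrol 0 of the 27 passed 2-fold in either direction, beside 0.0533% higher and 0.0577% lower of all. The median log2 difference was 0 over the 27 and over all probe sets in each comparison. With the mean of both DMSO arrays as control these calls changed. Both Sqstm1 probe sets stayed past 2-fold with butein (1.45 and 1.33 on the log2 scale), Gabarapl1 1416418_at fell short (0.38), and Becn1 1435219_x_at (1.39) and, downward, Wipi1 1452392_a_at (-1.05) passed. With sulfuretin Sqstm1 1450957_a_at fell short (0.77, 1.70-fold) and Becn1 1435219_x_at passed (1.39). The Becn1 and Wipi1 calls involve readings under the floor. Becn1 1435219_x_at read 4.72 in DMSO1, and Wipi1 1452392_a_at read 5.95 with butein and 6.17 in DMSO.

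Many readings were exactly equal to the solvent reading, within 1e-06 on the log2 scale. This held for 8 of the 27 probe sets with butein, 12 with sulfuretin and 6 with resveratrol, and for 30.3%, 33.1% and 33.5% of all probe sets at or above the floor. Apart from the probe sets of Sqstm1, Gabarapl1 and Ulk1, the 23 others lay between log2 differences of -0.23 and 0.11 with butein, -0.16 and 0.11 with sulfuretin, and -0.12 and 0.21 with resveratrol.

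**Figure D2:**
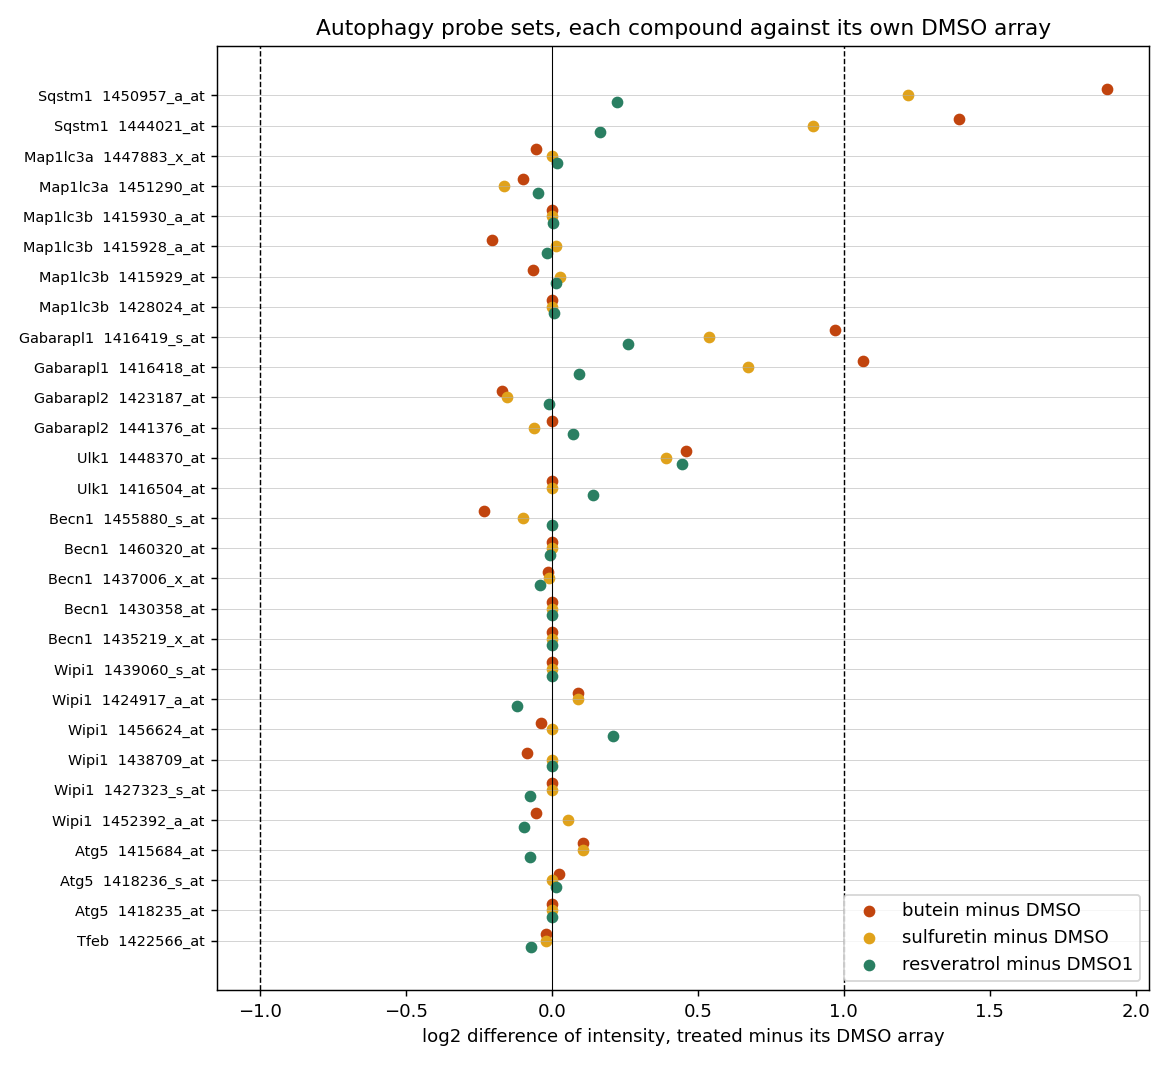
log2 difference of intensity between each treated array and the DMSO array of its set for the 29 probe sets, with dashed lines at 2-fold. With butein the probe sets of Sqstm1 (1.90 and 1.39) and 1416418_at of Gabarapl1 (1.07) lie past the line, with sulfuretin 1 probe set of Sqstm1 (1.22), and the rows of Map1lc3a, Map1lc3b, Gabarapl2, Becn1, Wipi1, Atg5 and Tfeb lie near 0.

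Butein and sulfuretin can be set against each other directly, since their arrays belong to one set and the time was the same, although the doses are not given. Both carry a catechol ring. Butein is an open-chain chalcone and sulfuretin an aurone, whose bridge forms part of a closed ring. With sulfuretin Sqstm1 was 1.61-fold lower than with butein on 1450957_a_at and 1.41-fold lower on 1444021_at, and Gabarapl1 1.35-fold lower on 1416419_s_at and 1.31-fold lower on 1416418_at. No autophagy probe set of the 27 passed 2-fold in either direction, beside 0.129% of all probe sets higher and 0.977% lower with sulfuretin. The limma fit gave the Sqstm1 difference on 1450957_a_at as -0.68 on the log2 scale with a 95% interval from -2.26 to 0.89 and an adjusted limma p of 1, and the one on 1444021_at as -0.50 with an interval from -2.08 to 1.08. For Gabarapl1 the intervals were -2.01 to 1.15 and -1.97 to 1.18. These intervals hold both no difference and a difference past 2-fold. Their width is the same for every probe set and comes from the spread between DMSO and DMSO1. Those solvent arrays lie in different sets, whereas butein and sulfuretin share one, so the fit cannot decide whether these compounds differ. The remaining members differed between the compounds by a log2 value of at most 0.22, on Map1lc3b 1415928_a_at, where sulfuretin was higher. Resveratrol, a stilbene without a catechol ring, was measured in the other set. Its array was not set against those of butein and sulfuretin, and only differences from solvent arrays were placed side by side.

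**Figure D3:**
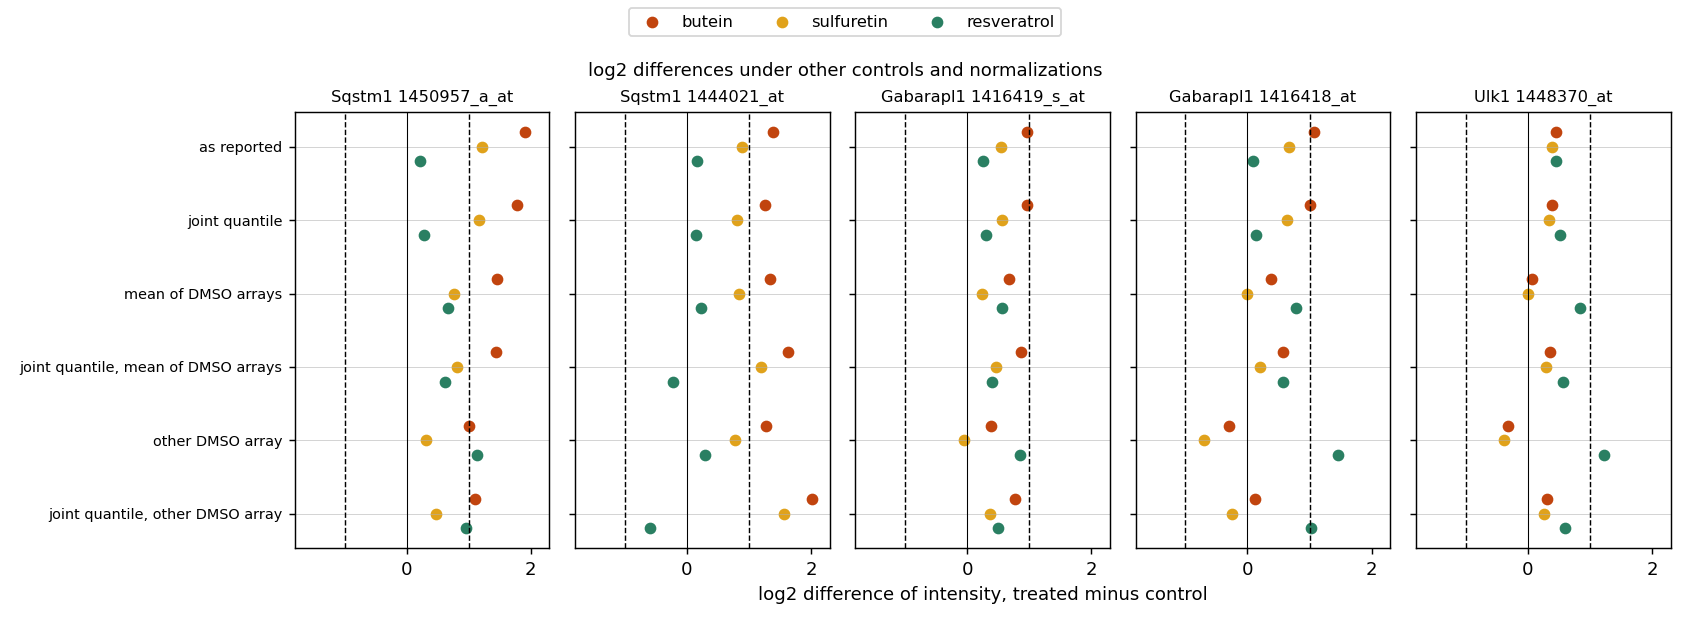
log2 differences of 5 probe sets of Sqstm1, Gabarapl1 and Ulk1 for each compound as reported and under 5 other choices of control array and normalization, with dashed lines at 2-fold. Butein on Sqstm1 lies between 0.997 and 2.01 in every row, whereas Gabarapl1 1416418_at with butein runs from -0.30 to 1.07.

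The genes whose 3 differences were nearest to those of Sqstm1 1450957_a_at were sought among 11294 other genes at or above the floor, each by the probe set with its highest mean. The measure was the Euclidean distance over the 3 log2 differences, of which those of butein and sulfuretin share the DMSO array. Nearest was Slc3a2, the heavy chain of several amino acid transporters, with a distance of 0.18. It read 1072 with butein and 646 with sulfuretin, against 302 in DMSO, and 709 with resveratrol against 564 in DMSO1. Then came the bicarbonate transporter gene Slc4a4 (0.20), Bach1, which encodes a repressor of antioxidant genes (0.28), the zinc finger gene Zfp655 (0.32) and the quinone reductase gene Nqo1 (0.34). Their differences ran from 3.39-fold to 4.03-fold higher with butein and from 1.89-fold to 2.66-fold higher with sulfuretin, and with resveratrol from log2 -0.10 to 0.41.

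Around the 10 genes, 112 further genes in 6 lists were read by their brightest probe set over the arrays, and 104 of them were at or above the floor. Outside the list of NRF2 genes, 1 of 92 was 2-fold higher with butein and 0 lower, 0 passed with sulfuretin and 0 with resveratrol. Over the 11295 genes at or above the floor 2.21% were 2-fold higher and 0.328% lower with butein, 0.212% and 0.0531% with sulfuretin, and 0.0708% each way with resveratrol. Of the 92 genes 57 were higher and 22 lower by any amount with butein, 61 and 12 with sulfuretin, and 34 and 41 with resveratrol, each against a single solvent array. Of all genes at or above the floor 34.6% were higher and 38.7% lower with butein, 36.5% and 33.7% with sulfuretin, and 33.5% and 36.2% with resveratrol, and their median log2 difference was 0 in each comparison. These shares also stand beside the counts of each list below. All 6 lists were chosen with earlier results of these data known, and the butein and sulfuretin counts share 1 DMSO array. The directions of the lists are therefore no independent evidence.

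Among 13 initiation and nucleation genes none passed 2-fold. By any amount 8 were higher and 2 lower with butein, 9 and 0 with sulfuretin, and 5 and 6 with resveratrol. With butein Atg14, a subunit that steers the Beclin 1 complex to autophagy, was highest (log2 difference 0.93) followed by Nrbf2, another subunit (0.89), and lowest were Pik3r4 (-0.14) and Pik3c3 (-0.04), genes of the lipid kinase itself. With sulfuretin Atg14 (0.38) and Atg101 (0.19) were highest. With resveratrol Bcl2 (0.27) and Ulk2 (0.14) were highest and Atg101 (-0.25) and Nrbf2 (-0.21) lowest. The list medians were 0.11, 0.09 and 0 in that order of compounds.

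Of 19 conjugation and phagophore genes none passed 2-fold, and the median was 0 with each compound. By any amount 9 were higher and 4 lower with butein, 8 and 3 with sulfuretin, and 7 and 6 with resveratrol. With butein Atg16l1 (0.40) and Atg2b (0.36) were highest and Vmp1 (-0.40) and Atg4a (-0.25) lowest. With sulfuretin Atg4c (0.41), from a DMSO level near the floor, and Atg2b (0.38) were highest and Vmp1 (-0.25) and Atg3 (-0.14) lowest. With resveratrol the list ran from -0.22 for Atg4c to 0.17 for Atg2b, with Atg4a (-0.12) and Wdr45b (0.06) next. Gabarap, the sister gene of Gabarapl1, differed by a log2 value of -0.04 with butein and 0 with sulfuretin and resveratrol.

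The 10 other cargo receptors at or above the floor, out of 12 listed, included no gene past 2-fold. By any amount 7 were higher and 3 lower with butein, 7 and 2 with sulfuretin, and 3 and 7 with resveratrol. The mitophagy receptor gene Bnip3 was highest with butein (0.85) and with sulfuretin (0.64), at 1735 with butein and 1499 with sulfuretin, against 964 in DMSO, and 1372 with resveratrol against 1437 in DMSO1. Retreg1, a receptor for the endoplasmic reticulum, came second (0.42 and 0.48), from a DMSO reading just under the floor. Fundc1, another mitophagy receptor, was lowest with butein (-0.63), sulfuretin (-0.32) and resveratrol (-0.16), with Ncoa4 next for butein (-0.05) and resveratrol (-0.10) and Wdfy3 for sulfuretin (-0.03). Highest with resveratrol were Retreg1 (0.19) and Tollip (0.11). Nbr1, the receptor most like p62 in build, differed by 0.06, 0 and -0.07. The medians were 0.15, 0.09 and -0.03.

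Lysosome and fusion genes, 26 at or above the floor, included the 1 gene past 2-fold outside the NRF2 list. By any amount 18 were higher and 7 lower with butein, 21 and 0 with sulfuretin, and 10 and 11 with resveratrol. Gla, the gene of alpha-galactosidase A, read 79.3 with butein and 49.97 with sulfuretin, against 32.6 in DMSO, and 47.9 with resveratrol against 53.1 in DMSO1, a log2 difference of 1.28 with butein. The cholesterol exporter gene Npc1 was next with butein (0.86), and Vamp8 (-0.22) and Naglu (-0.20) were lowest. With sulfuretin the sialidase gene Neu1 (0.80) and Npc1 (0.69) were highest. With resveratrol Neu1 (0.21) and Npc1 (0.15) were highest and Atp6v1b2 (-0.32) and Gla (-0.15) lowest. The medians were 0.04, 0.08 and 0.

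In the list of TFEB relatives and mTORC1 control, 24 of 25 genes were at or above the floor and none passed 2-fold. By any amount 15 were higher and 6 lower with butein, 16 and 7 with sulfuretin, and 9 and 11 with resveratrol. With butein the AMPK subunit gene Prkaa2 (0.72) and Fnip2 (0.65) were highest and the sestrin genes Sesn1 (-0.70) and Sesn3 (-0.58) lowest. With sulfuretin Prkaa2 (0.80) and Prkaa1 (0.72) were highest and Deptor, an inhibitor of mTOR, (-0.40) and Sesn3 (-0.34) lowest. With resveratrol Fnip2 (0.36) and Foxo3 (0.27) were highest and Ddit4 (-0.26) and Deptor (-0.24) lowest. Tfe3, the relative of Tfeb, differed by 0.60, 0.25 and 0.09. The medians were 0.21, 0.07 and 0.

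The list around p62, KEAP1 and NRF2 was drawn up with results of these arrays known, so its direction is no independent evidence. Of its 12 genes at or above the floor 7 were 2-fold higher with butein and the same number with sulfuretin, 0 were lower, and 0 passed with resveratrol. The medians were 2.13, 1.38 and 0.24. With butein the 7 were Osgin1 (log2 difference 4.52), Hmox1 (4.39), Srxn1 (3.83), Gclc (3.71), Txnrd1 (3.30), Gclm (2.33) and Nqo1 (1.94), and with sulfuretin they were Hmox1 (3.78), Srxn1 (2.76), Gclc (2.05), Osgin1 (1.98), Gclm (1.86), Txnrd1 (1.42) and Nqo1 (1.33). Keap1 itself differed by 0.24, 0.15 and -0.03, and Nfe2l2, the gene of NRF2, by 0.91, 0.19 and 0.22. The lowest values with butein and with sulfuretin were those of Map3k7 (-0.04 with each), and Traf6 followed (0.06 and 0). Highest with resveratrol were Hmox1 (0.97) and Trim16 (0.57) and lowest Nqo1 (-0.10) and Keap1 (-0.03). Set against butein directly, sulfuretin was at least 2-fold lower on 4 of the 12 genes and higher on 0, beside 0.977% lower of all probe sets. They were Osgin1 (-2.55), Txnrd1 (-1.88), Gclc (-1.65) and Srxn1 (-1.07). No gene of the other lists passed 2-fold between these compounds.

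**Figure D4:**
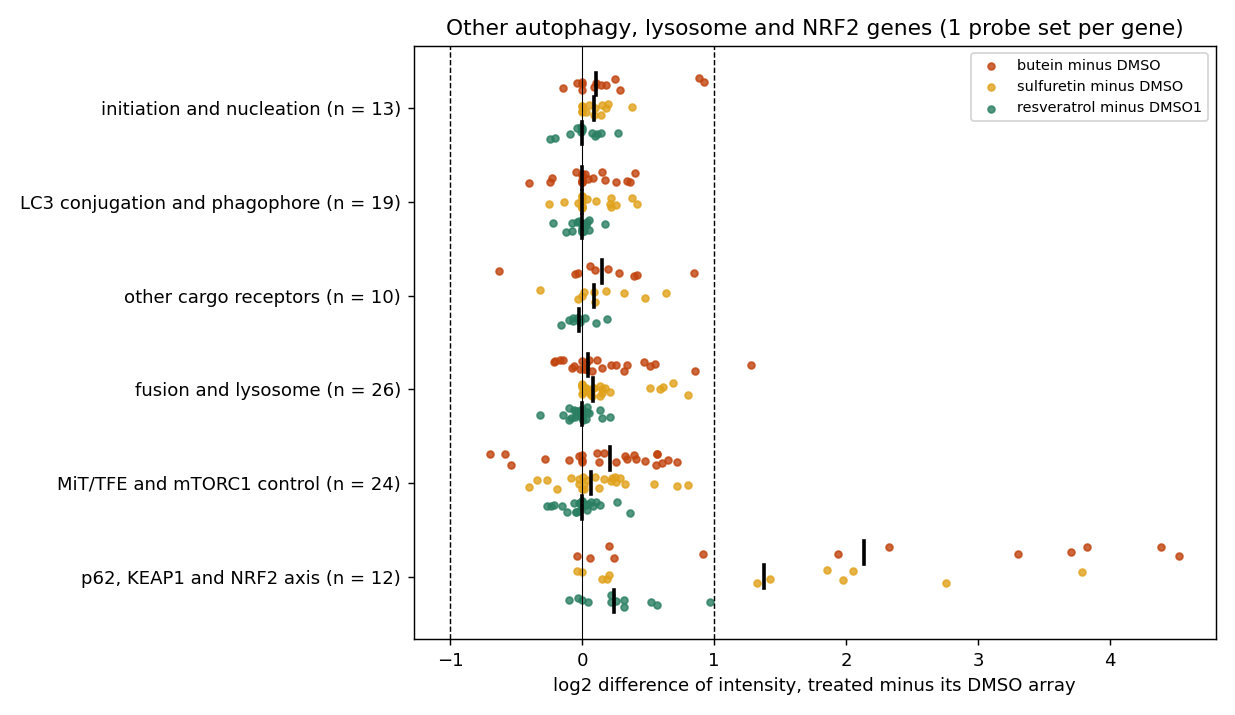
log2 difference of each gene of the 6 lists for each compound against the DMSO array of its set, with 1 point per gene at or above the floor, a black bar at the list median and dashed lines at 2-fold. The 7 NRF2 targets past 2-fold with butein reach 4.52, whereas in the other 5 lists Gla at 1.28 is the single point past the line.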

How the data were processed

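Per the submitters' processing notes, the authors made the deposited intensities with RMA, with no version or settings named there. Their range is that of linear values, and log2 was taken with no pseudocount. Symbols came from the platform annotation and were brought up to date by gene ID with a RefSeq table of GRCm38.p6 (34741 of 34945 single-gene probe sets). A further 932 probe sets name several genes and 9160 are not listed there.

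A difference was called at 2-fold, a log2 value of 1, with no test, as each group has 1 array. The limma fit covered all 45037 probe sets with Benjamini-Hochberg adjustment, and on the deposited values it pooled the spread into a single value. Alternatives were a 1.5-fold criterion, other floors, joint quantile normalization, centring, other solvent controls, 1 probe set per gene and leaving out _s_at and _x_at probe sets. Joint normalization combined with another control, and the limma contrast of sulfuretin with butein, were chosen after seeing the data.

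The 10 genes, lists and alternatives were chosen with earlier results of these data known. All probe sets of the 10 genes were named. Per list and comparison with a solvent array, the genes past 2-fold were named, and otherwise the 2 highest and 2 lowest. Ties at 0 were left out. For sulfuretin against butein only the list genes past 2-fold were named. Gabarap, Nbr1, Tfe3, Keap1, Nfe2l2, Traf6 and Map3k7 were also named where the rule did not call for it, after their values were seen. The fit and counts were run on simulated arrays made from the DMSO values with added noise and known changes. Those arrays had no offset between sets, so the run does not show how the fit behaves with that offset. Software was R 4.3.3 with limma 3.58.1, and Python 3.11.15 with numpy 2.4.6, pandas 2.3.3 and matplotlib 3.10.9.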

Additional observations from a re-analysis of the deposited data

How the results depend on the processing

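With butein 3 probe sets passed 2-fold, 2 of Sqstm1 and Gabarapl1 1416418_at, and the same 3 passed with joint quantile normalization and with centring. The count was 3 without a floor, with a floor reached by the highest array and without _s_at and _x_at probe sets, 4 at 1.5-fold, and 1 with 1 probe set per gene, where fewer are counted. Another control changed which probe sets passed. With the mean of both DMSO arrays they were 4 (3 higher and 1 lower), with DMSO1 9 (2 higher and 7 lower), with joint normalization and DMSO1 4 (3 higher and 1 lower) and with joint normalization and the mean 3. In none of these did Gabarapl1 1416418_at pass, while Becn1 1435219_x_at passed in all, and with DMSO1 as deposited Gabarapl1 1416418_at turned to -0.30 and Sqstm1 1450957_a_at fell short (0.997). With sulfuretin the count of 1, Sqstm1 1450957_a_at, became 3 at 1.5-fold, 7 with DMSO1 (1 higher, Becn1 1435219_x_at, and 6 lower), 3 with joint normalization and DMSO1 (2 higher and 1 lower) and 2 with joint normalization and the mean. It was 1 with the mean of both DMSO arrays, but that was Becn1 1435219_x_at, and under each of these other controls Sqstm1 1450957_a_at was not past 2-fold (log2 0.31 to 0.82). The other Sqstm1 probe set, 1444021_at, passed with joint normalization and DMSO1 (1.56) and with joint normalization and the mean (1.19). As deposited it fell short with DMSO1 (0.77) and with the mean (0.83). With resveratrol the count of 0 became 11 with DMSO as control (10 higher and 1 lower), 1 with the mean of both arrays, 3 with joint normalization and DMSO and 1 with joint normalization and the mean of both. For sulfuretin against butein the count of 0 became 1 at 1.5-fold. With limma the counts were 0 in all 4 comparisons on either scale. The cause of the changes with another control was not tested. No paired analysis was possible because each group has a single array and the labels carry no replicate numbers.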

Other observations

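The deposited intensities take fewer values than there are probe sets. The 45037 probe sets held 12800 distinct values with butein, 12509 with sulfuretin and 13405 in DMSO, and 12835 with resveratrol and 12090 in DMSO1. The reading of 8.37 of Ulk1 1416504_at and Map1lc3b 1428024_at was shared by 582 probe sets with butein, 558 with sulfuretin and 556 in DMSO. Equal readings of an autophagy probe set on 2 arrays are therefore no measure of how closely the cultures agreed.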
